A study of Homo sapiens with 18 samples.

Results

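Basal gene expression was compared between 2 engineered lines of THESC cells, an immortalised line of human endometrial stromal cells, in the absence of progestin. The 3 U1U2 vehicle libraries were set against the 3 NT vehicle libraries, 6 of the 18 RNA-seq libraries of the study, and all 15558 genes that passed a filter on low counts were described. In U1U2 cells the progesterone receptor gene PGR had been activated with CRISPR guide RNAs named U1U2, and their genotype is given as PGRA/B-equivalent. NT cells carried a non-targeting guide and were labelled WT. Both lines were kept in blasticidin, held in low serum, and then left for 72 hours in vehicle, 0.01% ethanol, in a medium with charcoal-stripped serum. The study also held these lines in MPA (medroxyprogesterone acetate, a progestin drug, at 1 µM), and a further activated line, Promoter cells (genotype PGRB-dominant), with and without MPA. Whether a line was 1 clone or a pool is not given, and 1 line was compared with 1 other, so the guides and any other difference between the lines cannot be told apart. All libraries carry 1 batch label. Nothing in the labels makes the replicates separate cultures. The p-values rest on the spread within the 6 groups of all 18 libraries, which may be technical.

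Progesterone receptor is a ligand-activated transcription factor of the nuclear receptor family. Bound to progestin it acts at response elements in chromatin and, in endometrial stromal cells, takes part in decidualisation, the differentiation that prepares the uterine lining for an embryo. PGRB is the longer isoform and PGRA lacks its amino-terminal segment. Both are read from the same gene, and counts per gene cannot separate them.

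The libraries of the 2 groups were not equally deep or equally alike. Totals were 11.9, 20.8 and 15.4 M counts in NT libraries 1 to 3 and 21.4, 31.3 and 31.0 M in U1U2 libraries 1 to 3. Levels are given as CPM, counts scaled to the effective library size. NT library 1 stood apart: ribosomal protein pseudogenes gave 812 CPM there and 231 to 409.9 CPM in the remaining 5 libraries, and it lay at one end of the second principal component of the 6 (33.6% of the variance). U1U2 library 1 lay with NT libraries 2 and 3 on the first component (37.8%). Mitochondrial transcripts took 3.02%, 2.51% and 2.59% of counts in NT and 2.53%, 1.8% and 1.79% in U1U2. Stromal transcripts were abundant in all 6 libraries, with 5109 to 10039 counts of the growth factor receptor PDGFRA, and the 23 stromal markers summed to 19292 to 23373 CPM in NT and 17821 to 18619 CPM in U1U2. Of markers of other cells, CD3E of T cells had 0 counts per library, PECAM1 of endothelium 0 to 3, PTPRC of leukocytes 47 to 115, and EPCAM and KRT18 of epithelium 11 to 30 and 105 to 358. The 20 epithelial markers (5 of them at 0) summed to 30.6 to 45.8 CPM in NT and 35.5 to 46.8 CPM in U1U2, the 15 endothelial markers (4 at 0) to 56.4 to 61.5 and 67.4 to 75.7 CPM, and the 21 leukocyte markers (8 at 0) to 8.84 to 10.1 and 6.07 to 7.13 CPM. PRL and IGFBP1, classical secreted products of decidual cells, had 1 to 3 and 0 to 3 counts per library.

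Without progestin, the main fit called few differences between the lines, and most of them were small. At an adjusted p under 0.05 (edgeR quasi-likelihood test, Benjamini-Hochberg over all 15558 genes), 178 genes differed, 1.14% of those tested, with 67 higher in U1U2 (0.431%) and 111 lower (0.713%). The median size of these differences was 0.60 on the log2 scale. Changes past 2-fold were called for 10 higher genes (0.0643%) and 26 lower genes (0.167%). The libraries of the 2 groups did not overlap for 172 of the 178, but this was also true of 2521 genes in all (16.2%). By the same edgeR test, 2526 genes (16.2%) had an unadjusted p under 0.05.

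The number of calls depended strongly on single libraries. It was 23 without NT library 2, 28 without U1U2 library 2 and 27 without U1U2 library 3, but 639 without U1U2 library 1 and 1483 without both libraries numbered 1, a choice made after seeing the data. Fitting the 6 vehicle libraries alone left 4 calls, PGR, LAMA1, PADI2 and ADGRF4. All 178 genes kept their direction in each alternative in which they were tested, and 20 were called whichever of the 6 libraries was left out. Those 20, with 9 higher and 11 lower, are described first, and for other genes the adjusted p is given where leaving out a library ended the call. Calls lost with the 6 vehicle libraries alone are not listed by gene. The same holds for calls lost with a term for replicate number, the replicate block, which kept 62 of the 178. It also holds for the block joined to offsets for GC content and transcript length, which kept 149 of the 174 calls tested there.

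**Figure D1:**
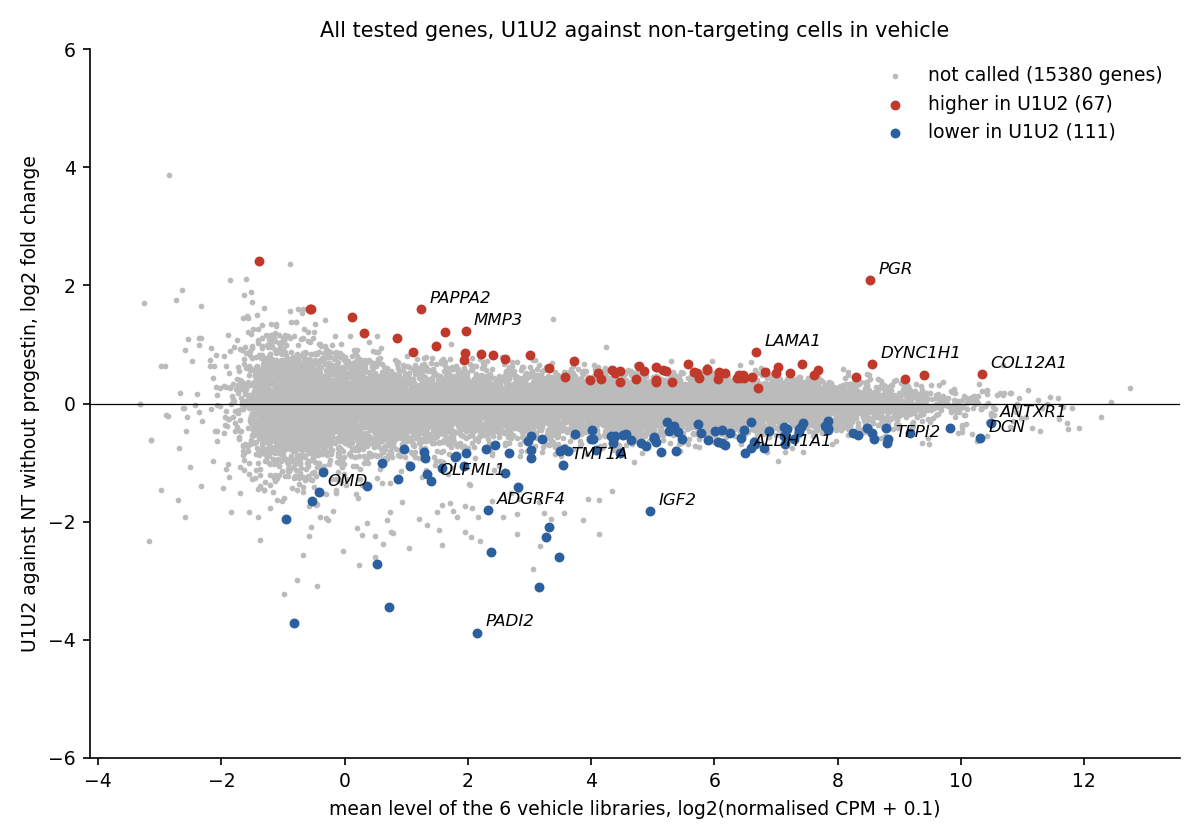
Level of each of the 15558 tested genes over the 6 vehicle libraries (x axis, log2 scale) against its log2 fold change, U1U2 against NT (y axis), with called genes in red (67 higher) or blue (111 lower). PGR stands apart among the higher genes, at 2.09, and PADI2 among the lower, at -3.88.

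PGR had the lowest adjusted p of all tested genes and the largest called rise among those with a mean of 1 CPM or more. It was at 120.0, 153 and 147 CPM in NT and 674, 531 and 584 CPM in U1U2. All U1U2 libraries lay far above all NT libraries. The log2 fold change was 2.09 ± 0.13 (SE, adjusted p = 7.21e-08, n = 3 and 3 libraries, edgeR), and PGR was called under every alternative run. NT cells held PGR transcripts without activation, at a mean of 140.0 CPM, where the median of all tested genes was 13.2 CPM.

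PGR lies on chromosome 11 at 101029624 to 101130524 on the minus strand (GRCh38, GENCODE 29), so this gene model starts at 101130524. The 250 bases before its RefSeq start (GRCh38.p14, chr11:101129078-101129327, minus strand, 5′ to 3′ in the sense of transcription) are shown because PGR is the gene that was activated.
PGR: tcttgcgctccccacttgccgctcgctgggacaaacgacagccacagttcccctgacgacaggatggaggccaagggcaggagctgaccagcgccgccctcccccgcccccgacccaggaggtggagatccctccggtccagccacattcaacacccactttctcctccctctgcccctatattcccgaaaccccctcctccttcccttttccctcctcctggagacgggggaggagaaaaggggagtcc
The stretch lies inside the GENCODE gene model, downstream of the start of that model, and the bases before that start are not shown. The stretch holds no match on either strand to AGAACA, a half-site bound by progesterone, glucocorticoid and androgen receptors.

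Within 2 Mb of PGR, 15 other genes were tested, with a median log2 fold change of -0.11. Of these, 1 was called, higher, where 0.431% of all tested genes were called higher. The libraries did not overlap, with U1U2 higher, for 3 of the 15, MMP3, MMP1 and DYNC2H1, against 8.23% of all tested genes. PGR-AS1, an antisense RNA that overlaps PGR, was at 1.51, 2.38 and 1.83 CPM in NT and 2.12, 1.56 and 1.15 CPM in U1U2, with overlapping groups (-0.30 ± 0.24, adjusted p = 0.566, edgeR). The strand setting of the counting is not given in the sources used here, so reads of PGR and PGR-AS1 may not have been told apart. ARHGAP42, the nearest other coding gene tested, had a log2 fold change of -0.11 ± 0.09 (adjusted p = 0.589, edgeR). MMP1, interstitial collagenase, missed the threshold (0.38 ± 0.10, adjusted p = 0.0751, edgeR), as did DYNC2H1, a dynein heavy chain of cilia (0.27 ± 0.13, adjusted p = 0.302). The 1 call in the window was MMP3, stromelysin 1, a secreted protease of the matrix, 1705277 bases from PGR. MMP3 was at 2.85, 2.14 and 1.9 CPM in NT and 4.28, 6.81 and 4.83 CPM in U1U2, without overlap (1.23 ± 0.27, adjusted p = 0.033, edgeR). The MMP3 call was lost, by adjusted p from edgeR, without NT library 2 (0.158), NT library 3 (0.11), U1U2 library 2 (0.215) or U1U2 library 3 (0.0929).

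Besides PGR, 8 genes were called higher in U1U2 whichever library was left out, among them a protease of the insulin-like growth factor (IGF) system and a laminin chain. PAPPA2, pappalysin 2, which cleaves IGF-binding proteins, was at 1.26, 0.858 and 1.31 CPM in NT and 3.55, 3.28 and 3.36 CPM in U1U2. Its log2 fold change was 1.60 ± 0.22 (adjusted p = 0.00252, edgeR). LAMA1, the alpha 1 chain of laminin in basement membranes, was at 72.9, 69.7 and 74.4 CPM in NT and 129, 142 and 125 CPM in U1U2 (0.87 ± 0.09, adjusted p = 0.000122, edgeR). In both genes every U1U2 library lay well above every NT library. SEL1L3, a membrane protein, was at 36.4, 35.7 and 37.6 CPM in NT and 54.1, 63.7 and 57.4 CPM in U1U2 (0.68 ± 0.09). PRUNE2 was at 22.1, 21.3 and 20.3 CPM in NT and 33.2, 33.1 and 33.1 CPM in U1U2 (0.64 ± 0.10). The remaining 4 rose by 0.49 to 0.62 on the log2 scale: KRT34, a hair keratin, FMN1, a formin that nucleates actin filaments, CEMIP2, a cell-surface protein of hyaluronan turnover, and GFRA1, the co-receptor of the growth factor GDNF.

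The 11 genes called lower whichever library was left out were led by PADI2, a peptidylarginine deiminase that converts arginine in proteins to citrulline. PADI2 was at 8.62, 8.0 and 7.67 CPM in NT and 0.645, 0.469 and 0.543 CPM in U1U2. Its log2 fold change was -3.88 ± 0.32 (adjusted p = 4.29e-06, edgeR). IGF2, insulin-like growth factor 2, was at 66, 45 and 33.3 CPM in NT and 17.6, 9.96 and 13.3 CPM in U1U2 (-1.82 ± 0.27, adjusted p = 0.00295, edgeR). The NT libraries of IGF2 spread widely, with library 1 the highest, yet none came near the U1U2 libraries. ADGRF4, an adhesion G protein-coupled receptor, was at 7.45, 8.0 and 7.53 CPM in NT and 1.84, 2.5 and 2.21 CPM in U1U2 (-1.80 ± 0.19, adjusted p = 0.000122, edgeR). SYT1, a calcium sensor of vesicle release, was at 3.26, 3.67 and 3.21 CPM in NT and 1.38, 1.53 and 1.53 CPM in U1U2 (-1.19 ± 0.17). None of these 4 genes had overlapping groups.

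ALDH1A1, which makes retinoic acid from retinaldehyde, was at 99.4, 126 and 122 CPM in NT and 62.1, 65.7 and 67.4 CPM in U1U2 (-0.83 ± 0.12, adjusted p = 0.00295, edgeR). TFPI2, a secreted inhibitor of serine proteases, was at 508, 536 and 599 CPM in NT and 383, 325 and 326 CPM in U1U2 (-0.67 ± 0.09). PLAT, tissue plasminogen activator, was at 147, 116 and 101 CPM in NT and 72, 71.9 and 73.2 CPM in U1U2 (-0.75 ± 0.12). In each of the 3, the highest U1U2 library lay below the lowest NT library. FOXE1, a forkhead transcription factor, was at 39.8, 41.1 and 40.7 CPM in NT and 24.2, 25.4 and 27.7 CPM in U1U2 (-0.65 ± 0.09, adjusted p = 0.00178, edgeR). NPTX1, neuronal pentraxin 1, and TMT1A, a methyltransferase, differed by -0.68 ± 0.10 and -1.04 ± 0.15.

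**Figure D2:**
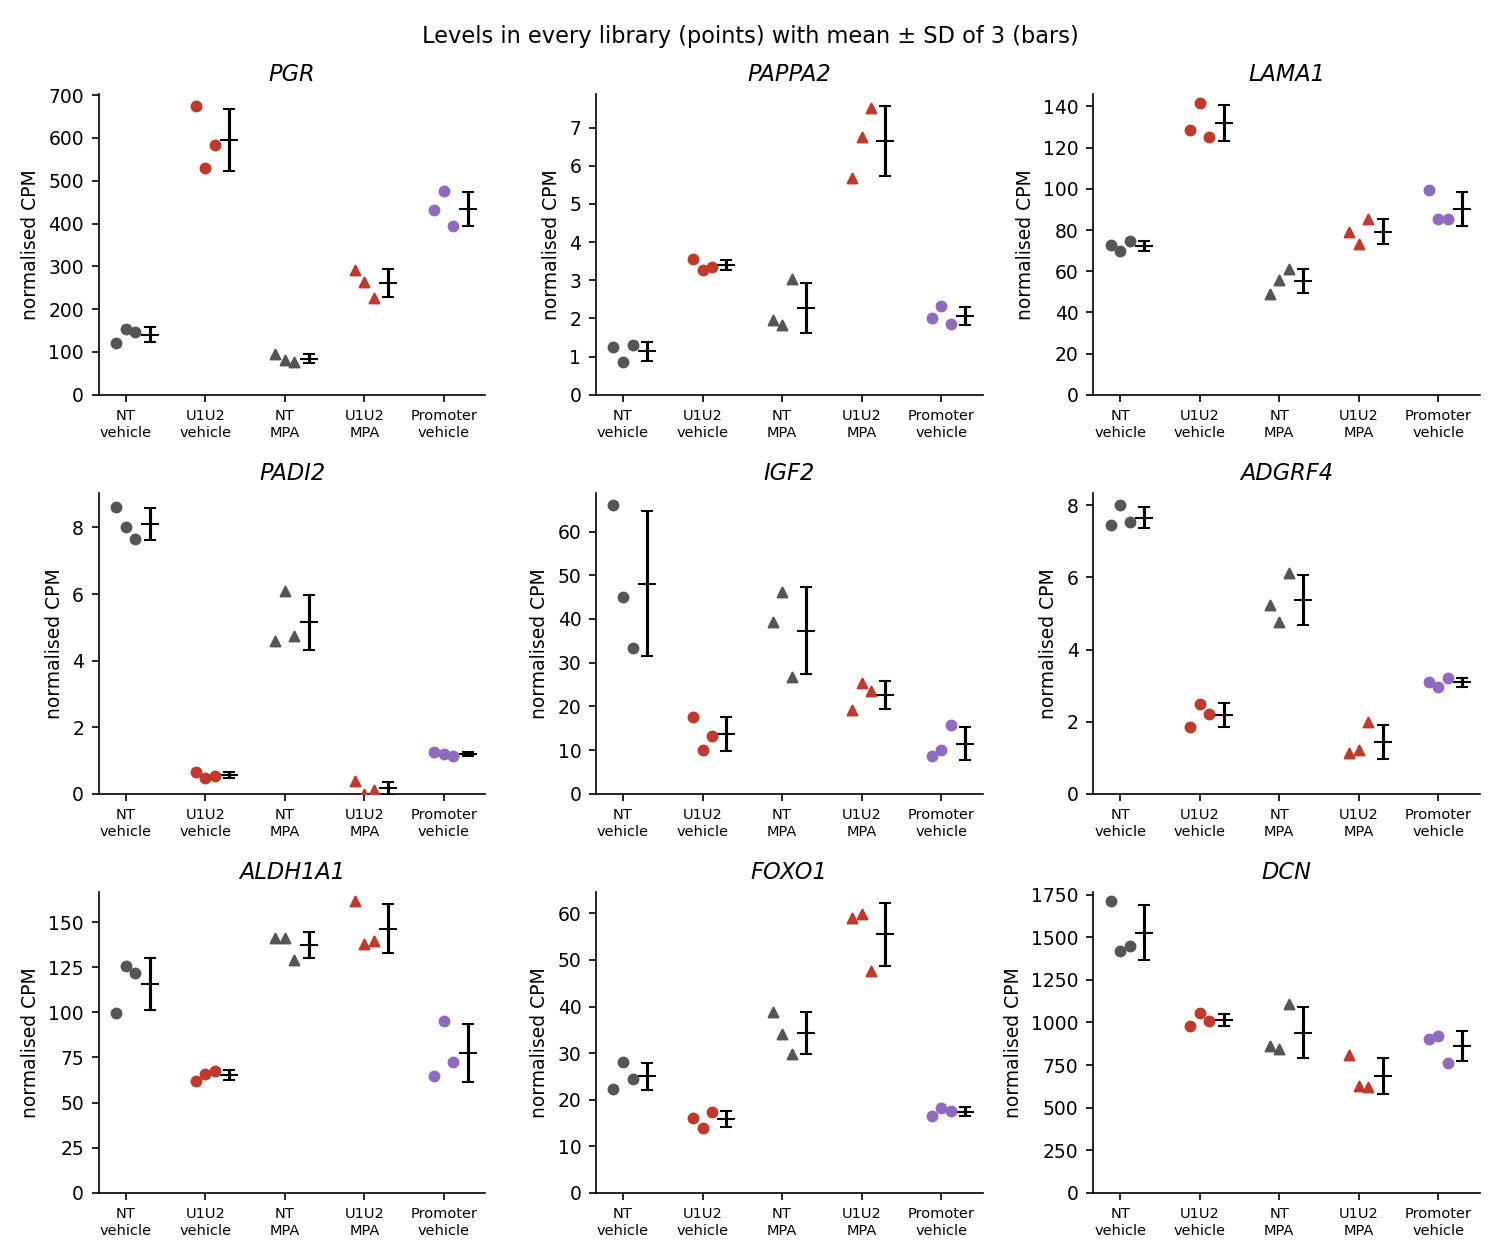
Normalised CPM (y axes, from 0) of 9 genes in each library, as points, by line and treatment (x axes; circles vehicle, triangles MPA), with the mean ± SD of 3 libraries beside them. In vehicle, PGR, PAPPA2 and LAMA1 lie higher and PADI2, IGF2, ADGRF4, ALDH1A1, FOXO1 and DCN lower in every U1U2 library than in every NT library.

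Of the abundant transcripts of matrix and growth factor genes given here, COL12A1 rose and the others fell. DCN, decorin, a small proteoglycan of stromal collagen, was at 1713, 1419.7 and 1449 CPM in NT and 981, 1055 and 1009 CPM in U1U2 (-0.59 ± 0.12, adjusted p = 0.0289, edgeR). ANGPT1, angiopoietin 1, a ligand of the endothelial receptor TEK, was at 468, 567 and 600.0 CPM in NT and 385, 327 and 373 CPM in U1U2 (-0.59 ± 0.12, adjusted p = 0.0289, edgeR). PDGFRA was at 428, 451 and 446 CPM in NT and 311, 303 and 321 CPM in U1U2 (-0.50 ± 0.09, adjusted p = 0.0129, edgeR). The groups did not overlap in any of these 3 lower genes. ANTXR1, a collagen-binding receptor, was at 1608, 1591 and 1639.6 CPM in NT and 1382, 1222 and 1224 CPM in U1U2 (-0.34 ± 0.08). COL12A1, a collagen that associates with fibrils, ran the other way: it was at 1057, 1115 and 1046 CPM in NT and 1558, 1546 and 1437 CPM in U1U2 (0.50 ± 0.10, adjusted p = 0.0289, edgeR). In bulk RNA, fewer cells of a kind and less RNA per cell cannot be told apart. Calls were lost, by adjusted p from edgeR, without NT library 1 (DCN, ANTXR1 and COL12A1, 0.0596 to 0.0757), NT library 2 (all 5, 0.0979 to 0.158), NT library 3 (ANGPT1, ANTXR1 and COL12A1, 0.0919 to 0.129), U1U2 library 2 (all 5, 0.113 to 0.271) or U1U2 library 3 (all 5, 0.0676 to 0.22). The DCN call was also lost with offsets for GC and length from the longest transcript (adjusted p = 0.0903) and without both libraries numbered 1 (adjusted p = 0.0547), and the ANTXR1 call with RLE normalization (adjusted p = 0.0598) or no filter on low counts (adjusted p = 0.121, edgeR).

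The matrix lists showed no common direction. Of 43 tested non-collagen matrix proteins, 1 rose (LAMA1) and 2 fell (DCN and OMD, osteomodulin), with a median log2 fold change of -0.10. Of 23 collagen chains, COL12A1 rose and none fell (median -0.05). Of 34 matrix proteases and inhibitors, MMP3 and ADAMTS12, a metalloprotease, rose and PLAT and TIMP3, a metalloprotease inhibitor, fell (median 0.02). Of 27 angiogenic and vascular factors, none rose and 3 fell: ANGPT1, ANGPTL2 (-0.47 ± 0.11) and EDNRA, an endothelin receptor (-0.51 ± 0.10). Over all tested genes the median was -0.00139, and 0.431% were called higher and 0.713% lower. With 1 library left out in turn, 0 to 4 of the angiogenic factors, 0 to 2 of the matrix proteins and 1 or 2 of the proteases and inhibitors were called lower. Among all genes those fits called 13 to 481 lower. Leaving out a library ended calls (adjusted p, edgeR): NT library 1 (TIMP3 and ANGPTL2, 0.0686 to 0.112), NT library 2 (all 5, 0.0979 to 0.206), NT library 3 (ADAMTS12 and EDNRA, 0.0644 to 0.147), U1U2 library 2 (all 5, 0.11 to 0.261) or U1U2 library 3 (ADAMTS12, TIMP3, ANGPTL2 and EDNRA, 0.103 to 0.207). ADAMTS12 was not called with RLE normalization (0.0596) or with no filter on low counts (0.0814), nor TIMP3 with no filter (0.342, adjusted p, edgeR).

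The IGF system held opposite movements. Of 17 tested members, PAPPA2 rose and IGF2 and IGFBP3 fell, and the median was -0.05. Over all tested genes 0.431% were called higher and 0.713% lower. IGFBP3, the main carrier of IGFs in serum, was at 1150.4, 966 and 1000.3 CPM in NT and 788, 716 and 837 CPM in U1U2, without overlap (-0.41 ± 0.09, adjusted p = 0.0403, edgeR). The IGFBP3 call was lost, by adjusted p from edgeR, without NT library 1 (0.101), NT library 2 (0.116), NT library 3 (0.0777), U1U2 library 2 (0.278) or U1U2 library 3 (0.0954). It was also lost without both libraries numbered 1 (adjusted p = 0.0621, edgeR). IGF2R, the receptor that clears IGF2, was at 397, 333 and 312 CPM in NT and 473, 484 and 427 CPM in U1U2 and missed the threshold (0.41 ± 0.11, adjusted p = 0.0693, edgeR).

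Genes of decidualisation that were called lay lower in U1U2. Of 26 tested decidual markers and regulators, 5 were called lower and 0 higher, where 0.713% of all tested genes were called lower and 0.431% higher. The median log2 fold change was -0.13, with 7 members above 0. EdgeR put 0 higher and 9 lower at an unadjusted p under 0.05, and DESeq2 called 0 higher and 6 lower. Of all 15558 tested genes, edgeR put 16.2% at an unadjusted p under 0.05, and DESeq2 called 178 higher and 295 lower. FOXO1, a forkhead factor that drives decidual genes, was at 22.3, 28.2 and 24.5 CPM in NT and 16.1, 14 and 17.3 CPM in U1U2 (-0.67 ± 0.12, adjusted p = 0.0137, edgeR). BMP2, a morphogen of decidual stroma, was at 20.7, 18.9 and 17.9 CPM in NT and 12.8, 12.7 and 12.3 CPM in U1U2 (-0.60 ± 0.14, adjusted p = 0.0456, edgeR). Neither gene had overlapping groups. The other 3 were IGFBP3, DCN and TIMP3 (-0.29 ± 0.06). HAND2, a progesterone-responsive factor of uterine stroma, was at 26.1, 18.9 and 20.8 CPM in NT and 15.4, 12.7 and 12 CPM in U1U2 and missed the threshold (-0.71 ± 0.20, adjusted p = 0.0988, edgeR). Leaving out 1 library gave 0 to 6 lower members, and 13 to 481 lower calls among all genes. By adjusted p from edgeR, calls were lost without NT library 1 (BMP2, 0.0934), NT library 2 (both, 0.119 to 0.158), NT library 3 (BMP2, 0.0728), U1U2 library 2 (both, 0.123 to 0.199) or U1U2 library 3 (BMP2, 0.19). With no filter on low counts BMP2 (0.0678) and TIMP3 (0.342) were not called, nor was BMP2 without both libraries numbered 1 (0.0526, adjusted p, edgeR).

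Known steroid receptor targets held 3 calls. Of 23 tested, 3 were called lower and 0 higher, beside 0.713% and 0.431% of all tested genes, and 9 had a log2 fold change above 0 (median -0.02). Of the 23, edgeR put 0 higher and 9 lower at an unadjusted p under 0.05, and DESeq2 called 0 higher and 3 lower. Of all 15558 tested genes, edgeR put 16.2% at an unadjusted p under 0.05, and DESeq2 called 178 higher and 295 lower. TSC22D3, a target shared by glucocorticoids and progestins, was at 53, 47.6 and 46.3 CPM in NT and 41.9, 65.6 and 66.8 CPM in U1U2 (0.25 ± 0.21, adjusted p = 0.59, edgeR). CRISPLD2, a secreted protein that progestins and glucocorticoids raise, was at 92.4, 77.3 and 73 CPM in NT and 57, 61.5 and 59.1 CPM in U1U2 (-0.45 ± 0.10, adjusted p = 0.0387, edgeR). OMD was at 0.837, 1.0 and 1.05 CPM in NT and 0.276, 0.281 and 0.448 CPM in U1U2 (-1.50 ± 0.27). The groups overlapped for TSC22D3 and not for CRISPLD2 or OMD. APCDD1, an inhibitor of WNT signalling, was at 0.92, 0.953 and 0.983 CPM in NT and 0.415, 0.406 and 0.448 CPM in U1U2 (-1.16 ± 0.25, adjusted p = 0.033, edgeR). Leaving out 1 library gave 0 to 3 lower members, and 13 to 481 lower calls among all genes. Calls were lost, by adjusted p from edgeR, without NT library 1 (both, 0.0583 to 0.101), NT library 2 (both, 0.124 to 0.166), NT library 3 (APCDD1, 0.101), U1U2 library 1 (CRISPLD2, 0.051), U1U2 library 2 (both, 0.152 to 0.185) or U1U2 library 3 (both, 0.116 to 0.15). The APCDD1 call was also lost with no filter on low counts (0.0564) and the CRISPLD2 call without both libraries numbered 1 (0.0721, adjusted p, edgeR).

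Among 21 tested genes of the steroid and related nuclear receptors, PGR rose and 3 fell, beside 0.431% and 0.713% of all tested genes. In this list edgeR put 2 higher and 5 lower at an unadjusted p under 0.05, and DESeq2 called 1 higher and 4 lower. Of all 15558 tested genes, edgeR put 16.2% at an unadjusted p under 0.05, and DESeq2 called 178 higher and 295 lower. NR2F1, an orphan receptor, was at 58.4, 68.8 and 67 CPM in NT and 49.7, 40.5 and 47.1 CPM in U1U2 (-0.50 ± 0.10, adjusted p = 0.0289, edgeR). RARB, a retinoic acid receptor, was at 2.26, 2.33 and 2.36 CPM in NT and 1.34, 1.37 and 1.37 CPM in U1U2 (-0.77 ± 0.17, adjusted p = 0.0366, edgeR). NR4A3, an immediate early orphan receptor, fell by 0.81 on the log2 scale. Leaving out a library ended calls (adjusted p, edgeR): NT library 1 (RARB, 0.06), NT library 2 (all 3, 0.152 to 0.158), NT library 3 (all 3, 0.0829 to 0.152), U1U2 library 2 (all 3, 0.179 to 0.258) or U1U2 library 3 (all 3, 0.0929 to 0.143). The NR2F1 call was also lost with offsets for GC and length (adjusted p = 0.0861) or with those from the longest transcript (adjusted p = 0.0824, edgeR), and those of RARB and NR4A3 with no filter on low counts (0.182 and 0.116). Of 19 receptor cofactors and chaperones, none was called by edgeR (median 0.06), with 2 higher and 1 lower at an unadjusted p under 0.05, and DESeq2 called 1 higher and 0 lower.

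HOX genes and other factors of regional identity lay mostly lower in U1U2 in vehicle, few past the threshold. Of 50 tested, 3 were called lower and none higher, beside 0.713% and 0.431% of all tested genes. The median log2 fold change was -0.39, and 8 lay above 0. In MPA the median difference of U1U2 from NT was -0.02, with 0 called higher and 1 lower, beside 1.72% of all tested genes called. Promoter cells against the same NT vehicle libraries had a median of -0.28. There 0 were called higher and 8 lower, beside 6.75% of all tested genes called. The libraries did not overlap, with U1U2 lower, for 20 of the 50, against 7.97% of all tested genes. OSR2, a zinc finger factor of mesenchyme, was at 36.7, 39.7 and 40.0 CPM in NT and 25.1, 25.4 and 27.8 CPM in U1U2 (-0.57 ± 0.10, adjusted p = 0.0112, edgeR). MEIS1, a HOX cofactor, was at 186, 194 and 201 CPM in NT and 159, 152 and 151 CPM in U1U2 (-0.33 ± 0.07). SIX2, a homeodomain factor, was at 2.76, 3.38 and 3.14 CPM in NT and 1.57, 1.87 and 1.5 CPM in U1U2 (-0.91 ± 0.18). All U1U2 libraries lay below all NT libraries in these 3. HOXA10, a factor needed for the uterine lining to accept an embryo, was at 47.9, 55.2 and 54.2 CPM in NT and 42.4, 29.9 and 38.7 CPM in U1U2 and missed the threshold (-0.51 ± 0.16, adjusted p = 0.129, edgeR). TWIST1 was at 21.3, 23.1 and 23.3 CPM in NT and 18.8, 9.43 and 12.1 CPM in U1U2 (-0.76 ± 0.31, adjusted p = 0.248, edgeR), with U1U2 library 1 closer to NT than libraries 2 and 3. The list's median was -0.54 without both libraries numbered 1 and -0.28 without U1U2 library 2, and 0 to 12 members were called lower when 1 library was left out. Among all genes those fits called 13 to 481 lower, the most without U1U2 library 1. By adjusted p from edgeR, calls were lost without NT library 2 (all 3, 0.0758 to 0.139), NT library 3 (MEIS1 and SIX2, 0.0504 to 0.102), U1U2 library 2 (all 3, 0.075 to 0.173) or U1U2 library 3 (MEIS1 and SIX2, 0.121 to 0.145). MEIS1 was not called with offsets from the longest transcript (0.0535) or with no filter on low counts (0.215, adjusted p, edgeR). Mitochondrial and other transcripts that mark RNA quality and library composition had a median of -0.40 over 21 genes, with 1 called lower, and their part in the values of the HOX and decidual lists was not tested.

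Proliferation genes lay slightly higher in U1U2, with no member called. Of 42 tested genes of DNA replication, 38 had a log2 fold change above 0, with a median of 0.23. Of 39 genes of mitosis and the spindle, 36 lay above 0, with a median of 0.14. The libraries did not overlap, with U1U2 higher, for 12 and 7 of these genes, against 8.23% of all tested genes. Of the genes of DNA replication, edgeR put 14 higher and 0 lower at an unadjusted p under 0.05, and DESeq2 called 4 higher and 0 lower. Of the genes of mitosis, edgeR put 10 higher and 0 lower at an unadjusted p under 0.05, and DESeq2 called 1 higher and 0 lower. An unadjusted p under 0.05 was found by edgeR for 2526 of all tested genes (16.2%). Over all tested genes DESeq2 called 178 higher and 295 lower. Interferon-stimulated genes (41, median 0.12) and genes of sterol and fatty acid synthesis (33, median 0.02) held no call in edgeR. The former had 3 higher and 1 lower at an unadjusted p under 0.05, and DESeq2 called 1 higher and 1 lower. The latter had 4 higher and 1 lower at an unadjusted p under 0.05, and DESeq2 called 1 higher and 1 lower. Nor did genes of the unfolded protein response (32, median 0.08) or of glycolysis and hypoxia (33, median 0.09). Genes of the unfolded protein response had 5 higher and 0 lower at an unadjusted p under 0.05, and DESeq2 called 0 higher and 0 lower. Genes of glycolysis and hypoxia had 1 higher and 1 lower at an unadjusted p under 0.05, and DESeq2 called 0 higher and 0 lower.

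**Figure D3:**
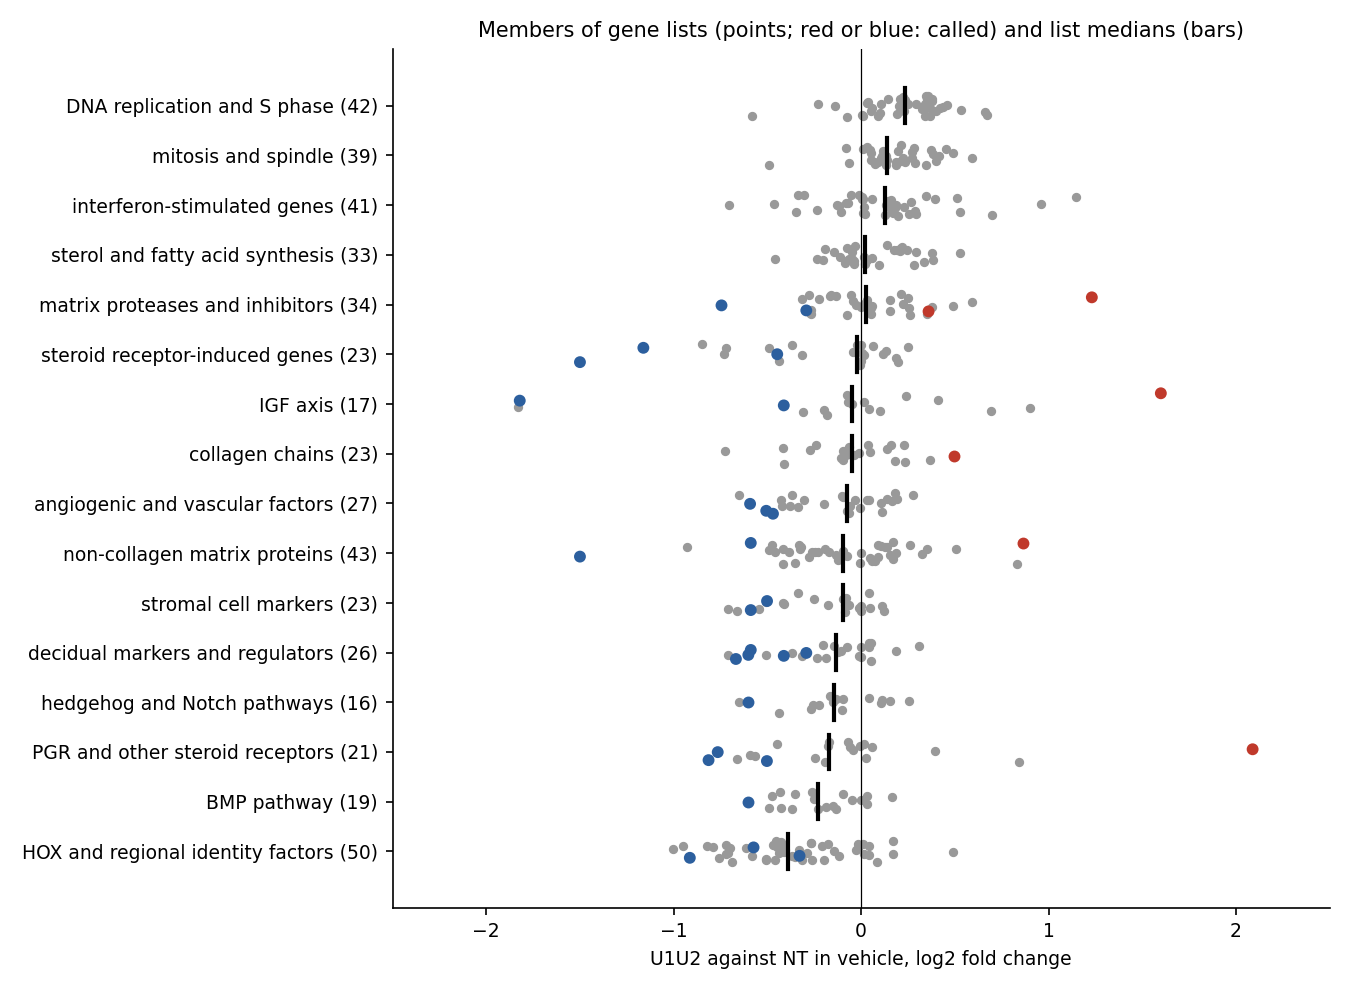
Log2 fold change, U1U2 against NT in vehicle (x axis), of each tested member of 16 gene lists (rows, with the number tested), with called members in red (higher) or blue (lower) and the list median as a bar. HOX and regional identity factors have a median of -0.39 and genes of DNA replication one of 0.23, while called members are few in every list shown.

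The genes called higher had long transcripts. The longest annotated transcript had a median of 8707 bases among the 61 coding genes called higher, 4248 among the 97 coding genes called lower and 3815 among all 12297 coding genes tested. Of 10 equal bins by that length, the bin of longest transcripts, 1230 genes, held 34 of the 61 higher calls and 5 of the 97 lower calls. This bin as a whole had a median log2 fold change of 0.03. With the median annotated transcript in place of the longest, the medians were 1751, 2081 and 1107 bases for higher calls, lower calls and all coding genes.

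The long transcripts included motor, cytoskeletal and ubiquitin ligase genes. DYNC1H1, the heavy chain of cytoplasmic dynein, was at 330.4, 287 and 260.3 CPM in NT and 469, 498 and 423 CPM in U1U2 (0.66 ± 0.14, adjusted p = 0.0289, edgeR). UBR4, a very large ubiquitin ligase, was at 160.4, 128 and 109 CPM in NT and 223, 221 and 186 CPM in U1U2 (0.66 ± 0.14). MACF1, which links actin and microtubules, was at 590.1, 581 and 514 CPM in NT and 857, 813 and 698 CPM in U1U2 (0.49 ± 0.11). All U1U2 libraries lay above all NT libraries in these 3. TRIO was at 289, 258 and 248 CPM in NT and 343, 391.9 and 355 CPM in U1U2 (0.46 ± 0.10). Offsets for GC content and median transcript length left 34 of the 34 long higher calls in place. Offsets built from the longest transcript, the length that defines the bin, left 31, a choice made after seeing the data. With the replicate block 14 of the 34 were called, and with the 6 vehicle libraries alone 2. Of the 34, 7 were called without NT library 2, 10 without NT library 3, 8 without U1U2 library 2 and 10 without U1U2 library 3. Calls were lost, by adjusted p from edgeR, without NT library 2 (all 4, 0.124 to 0.16), NT library 3 (all 4, 0.0922 to 0.128), U1U2 library 2 (all 4, 0.157 to 0.229) or U1U2 library 3 (all 4, 0.0593 to 0.119).

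Some lower calls moved with features of the libraries. Of the 111 lower calls, 7 were ribosomal protein pseudogenes, which share sequence with their parent genes and whose counts are uncertain. The log2 fold change of RPL23AP42 was -3.11 ± 0.66, and it was -1.82 without NT library 1, the library rich in such reads. Mitochondrially encoded genes had a median of -0.48 over 18 genes, and MT-ND3, a subunit of complex I, passed the threshold. MT-ND3 was at 535, 428 and 428 CPM in NT and 363, 267 and 287 CPM in U1U2 (-0.60 ± 0.12, adjusted p = 0.0202, edgeR). The MT-ND3 call was lost, by adjusted p from edgeR, without NT library 1 (0.0573), NT library 2 (0.0597), U1U2 library 2 (0.151) or U1U2 library 3 (0.107). The 21 tested genes of a list of RNA quality and library composition, mitochondrial transcripts and histone genes among them, had a median of -0.40, with 18 below 0. MT-ND3 was the 1 called, where 0.713% of all tested genes were called lower. EdgeR put 1 higher and 15 lower at an unadjusted p under 0.05, and DESeq2 called 0 higher and 3 lower. Of all 15558 tested genes, edgeR put 16.2% at an unadjusted p under 0.05, and DESeq2 called 178 higher and 295 lower. Leaving out 1 library gave 0 to 14 lower members, and 13 to 481 lower calls among all genes. The part of RNA quality in these calls was not tested.

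The MPA libraries, which share no library with the vehicle comparison, gave another measurement of the difference between the lines. In MPA, 268 genes differed between U1U2 and NT (1.72%). Of the 178 vehicle calls, 40 were called there in the same direction, 22.5% of the vehicle calls and 14.9% of the MPA calls, and 3 in the opposite direction. The sign was the same for 147 of the 178 (82.6%), against 49.7% of all tested genes. Of the 40, 9 were called in both treatments whichever library of the 6 compared was left out, among them PGR, PAPPA2, LAMA1, PRUNE2 and SEL1L3, higher, and PADI2, ADGRF4 and FOXE1, lower. In MPA the log2 fold change of PADI2 was -5.04 ± 0.40, that of ADGRF4 -1.86 ± 0.20 and that of PAPPA2 1.59 ± 0.19, beside -3.88, -1.80 and 1.60 in vehicle. PGR differed by 1.62 ± 0.13 in MPA, and its difference between treatments did not pass the threshold (-0.47 ± 0.17, adjusted p = 0.441, edgeR).

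Several further genes differed in both treatments. RIPOR2 was at 10.4, 9.77 and 11.3 CPM in NT and 5.85, 5.62 and 5.18 CPM in U1U2 in vehicle (-0.92 ± 0.16), and differed by -1.81 ± 0.21 in MPA. OLFML1, a secreted olfactomedin-like protein, differed by -1.31 ± 0.22 in vehicle and -2.07 ± 0.26 in MPA, and DPP4, a cell-surface peptidase, by -0.69 ± 0.12 and -1.10 ± 0.12. ANKRD1, a target of the mechanosensitive factor YAP, was at 2.34, 3.05 and 2.88 CPM in NT and 5.02, 4.44 and 4.57 CPM in U1U2 in vehicle (0.74 ± 0.17), and differed by 1.42 ± 0.15 in MPA. The difference between treatments did not pass the threshold for these 4 genes (adjusted p 0.276 to 0.487, edgeR). Leaving out a library ended calls (adjusted p, edgeR): NT library 1 (ANKRD1, 0.106), NT library 2 (all 4, 0.0548 to 0.139), NT library 3 (ANKRD1, 0.107), U1U2 library 1 (ANKRD1, 0.0542), U1U2 library 2 (all 4, 0.0544 to 0.167) or U1U2 library 3 (all 4, 0.0596 to 0.144). The ANKRD1 call was also lost without both libraries numbered 1 (adjusted p = 0.072, edgeR).

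**Figure D4:**
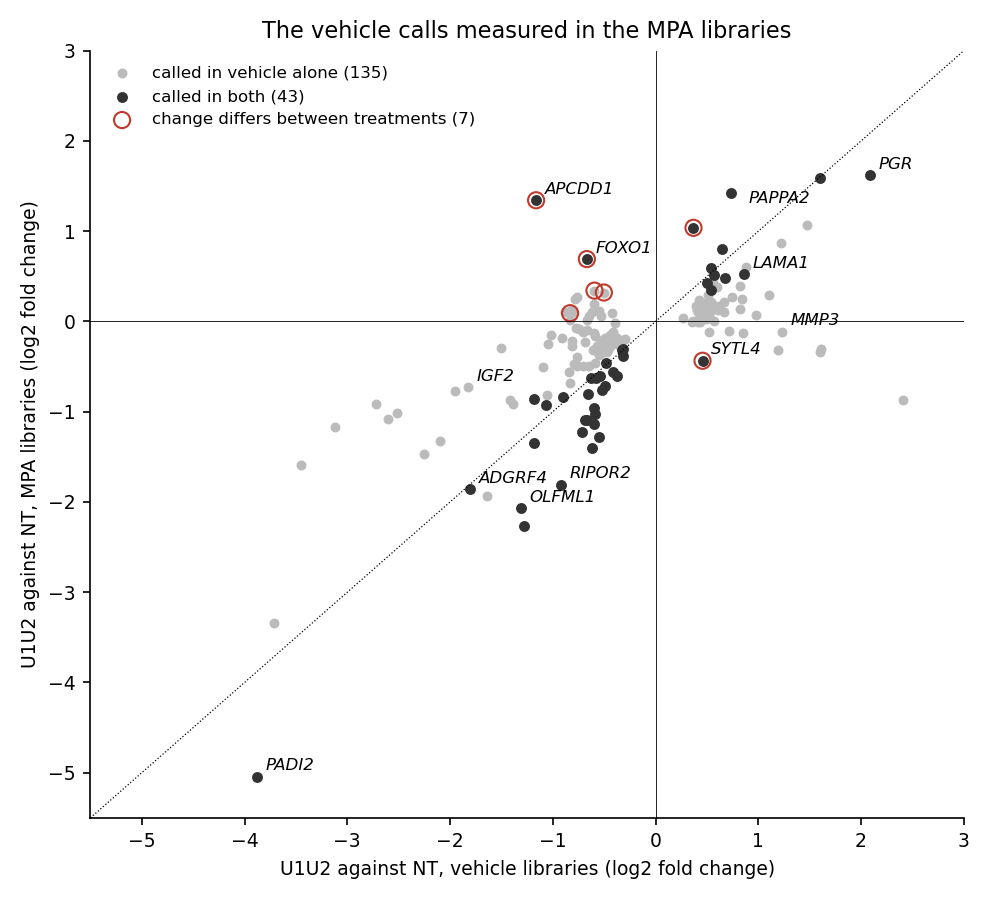
Log2 fold change, U1U2 against NT, of the 178 vehicle calls in the vehicle libraries (x axis) and in the MPA libraries (y axis), with the dotted line marking equal values. Black points were called in both treatments (43), and circles mark the 7 genes whose difference between lines itself differed between treatments.

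For 7 of the vehicle calls the difference between lines itself differed between treatments, out of 34 such genes (0.219%). The tested term contains the vehicle difference by which the 178 were called. The count of 7 therefore cannot be set against the share of all tested genes. FOXO1 was lower in U1U2 in vehicle and higher in MPA (0.69 ± 0.12), a difference of 1.36 ± 0.17 (adjusted p = 0.00102, edgeR). APCDD1 turned from -1.16 to 1.34 ± 0.16, a difference of 2.51 ± 0.30. Both were called for this difference whichever of the 12 libraries was left out. SYTL4, a Rab effector of vesicle release, turned from 0.46 ± 0.10 to -0.44 ± 0.10, a difference of -0.89 ± 0.14. The SYTL4 call in MPA was lost without any 1 of the 6 MPA libraries compared (adjusted p 0.0675 to 0.115, edgeR). ALDH1A1, NR2F1 and RHOU were lower in U1U2 in vehicle and not called between lines in MPA. PLCB4, a phospholipase C, was higher in both, by 0.37 ± 0.09 and 1.04 ± 0.08. The difference between treatments was lost for SYTL4, NR2F1, PLCB4, RHOU and ALDH1A1 without NT vehicle library 2 (adjusted p 0.0763 to 0.159, edgeR), among other libraries. In vehicle, 6 of the 7 calls depended on single libraries; the values of FOXO1 and APCDD1 were given with the decidual and steroid receptor lists, and those of NR2F1, RHOU, SYTL4 and PLCB4 follow. By adjusted p from edgeR, calls were lost without NT library 1 (SYTL4 and PLCB4, 0.0837 to 0.101), NT library 2 (all 4, 0.139 to 0.174), NT library 3 (all 4, 0.0604 to 0.126), U1U2 library 1 (PLCB4, 0.0633), U1U2 library 2 (all 4, 0.107 to 0.278) or U1U2 library 3 (all 4, 0.0979 to 0.218). With no filter on low counts the calls of RHOU and SYTL4 were lost (adjusted p = 0.0675 and 0.0653, edgeR), and PLCB4 missed the threshold with RLE normalization (adjusted p = 0.0626) and without both libraries numbered 1 (adjusted p = 0.0848, edgeR).

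Promoter cells, the other PGR-activated line, were set beside these genes in vehicle. They held 434 CPM of PGR on average, and their difference from U1U2 in PGR missed the threshold (-0.46 ± 0.12, adjusted p = 0.107, edgeR). Their comparison with NT called 1050 genes (6.75%), and because it shares the NT libraries, values are given gene by gene. PADI2 differed from NT by -2.75 in Promoter cells and -3.88 in U1U2, IGF2 by -2.05 and -1.82, and PAPPA2 by 0.87 and 1.60. Set directly against U1U2, Promoter cells differed by 1.13 ± 0.35 in PADI2 (adjusted p = 0.211, edgeR) and -0.23 ± 0.27 in IGF2 (adjusted p = 0.962, edgeR). Neither gene was called there, nor was PAPPA2. Between Promoter and U1U2 cells directly, 122 genes differed (0.784%). LAMA1 was lower in Promoter cells than in U1U2 (-0.55 ± 0.09), as were GFRA1 (-0.48 ± 0.07) and FAT3, a large cadherin (-0.90 ± 0.14). FAT3 was at 3.77, 3.86 and 3.67 CPM in NT and 7.1, 6.75 and 6.17 CPM in U1U2 and at a mean of 3.6 CPM in Promoter cells. ITGAX, an integrin chain, was at 2.59, 2.33 and 2.42 CPM in NT and 1.06, 1.16 and 0.799 CPM in U1U2 (-1.28 ± 0.23) and was higher in Promoter cells than in U1U2 (1.36 ± 0.21). Against U1U2, 4 genes of DNA replication and 12 of mitosis were called higher in Promoter cells, against 0.527% of all tested genes. For the comparison of U1U2 with NT, leaving out NT library 2 (both, 0.0597 to 0.0807), U1U2 library 2 (FAT3, 0.0792) or U1U2 library 3 (ITGAX, 0.0789) ended a call (adjusted p, edgeR).

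The MPA response of Promoter cells was measured in libraries that the vehicle comparison of U1U2 and NT does not use. MPA changed 2339 genes in Promoter cells (15%) and 91 of the 178 (51.1%). The 178 were also more abundant, with a median of 32.3 CPM in NT against 13.2 CPM for all tested genes. Of the 67 genes higher in U1U2, MPA raised 11 and lowered 23, and of the 111 lower genes it raised 27 and lowered 30. Over all tested genes MPA raised 6.63% and lowered 8.4%.

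The promoters of the calls were searched on both strands for the half-site AGAACA, and for GNACA and TGTNC 3 bases apart, a loose palindrome of such half-sites, from 250 bases before to 50 after the RefSeq start (GRCh38.p14). RefSeq promoters matched 120 of the 178 calls by symbol. The half-site lay in 3 of 47 windows of higher calls (6.38%) and 8 of 73 windows of lower calls (11%), against 9.05% of the 11003 windows of tested genes. The palindrome was in 0 of the windows of called genes and in 0.209% of all windows of tested genes. The upstream bases of TRIO (chr5:14143092-14143341, plus strand), a higher call, and ANTXR1 (chr2:69012894-69013143, plus strand), a lower call, are shown as examples with a match, which is in capitals and reads TGTTCT where it lies on the other strand.
TRIO: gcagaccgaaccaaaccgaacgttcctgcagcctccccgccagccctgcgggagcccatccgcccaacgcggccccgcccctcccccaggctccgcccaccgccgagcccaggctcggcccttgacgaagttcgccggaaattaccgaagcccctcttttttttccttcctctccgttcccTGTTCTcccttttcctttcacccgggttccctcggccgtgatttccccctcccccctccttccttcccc
ANTXR1: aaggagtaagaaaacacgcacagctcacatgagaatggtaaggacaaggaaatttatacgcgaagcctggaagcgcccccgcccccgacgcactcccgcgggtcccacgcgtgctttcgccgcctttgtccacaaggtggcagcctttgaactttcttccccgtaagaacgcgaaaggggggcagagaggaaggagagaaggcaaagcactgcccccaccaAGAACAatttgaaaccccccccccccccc
A match is a run of letters, not a bound site.

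**Figure D5:**
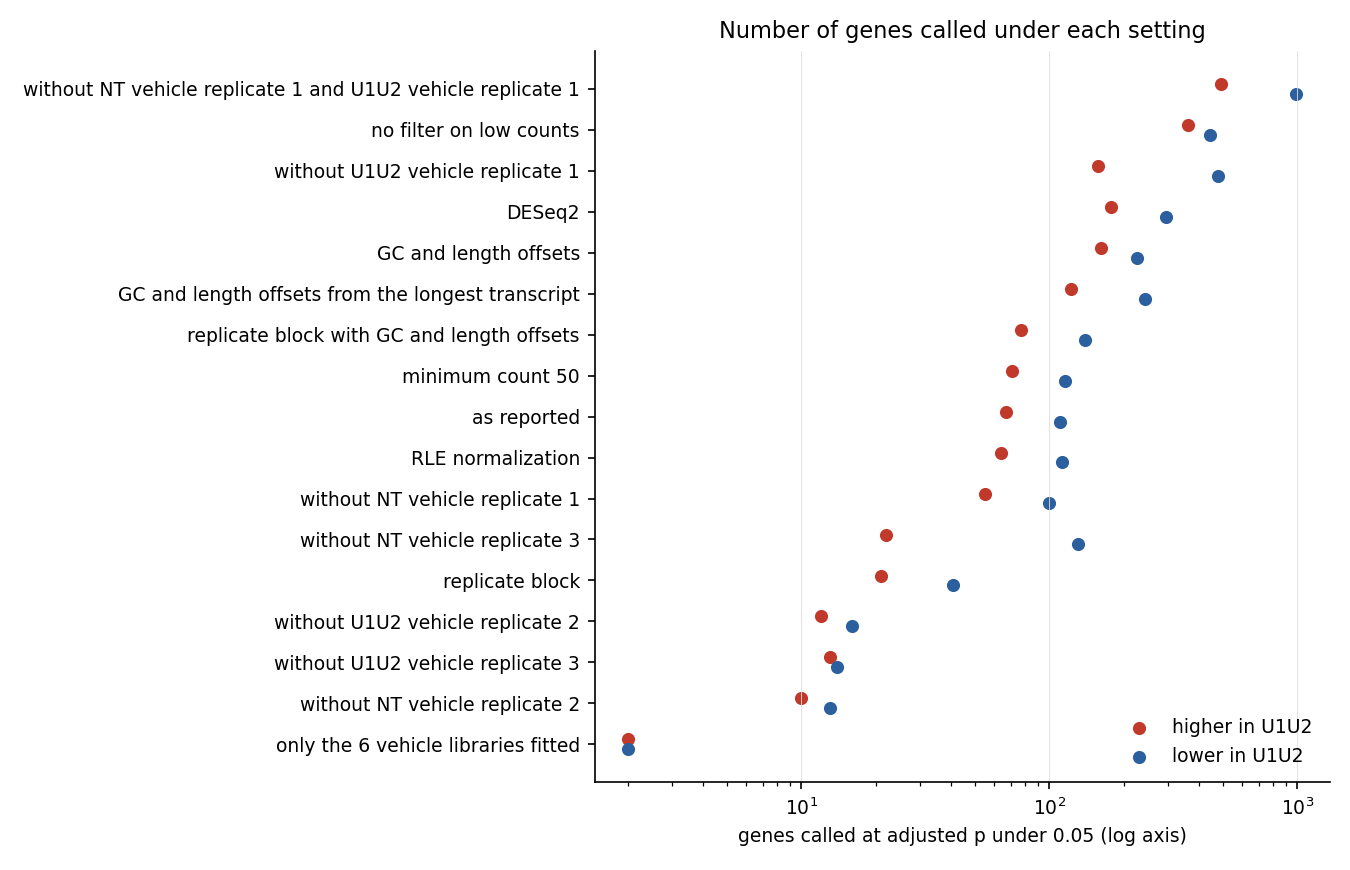
Number of genes called higher (red) and lower (blue) in U1U2 against NT in vehicle (x axis, log scale) under each setting (rows). The totals run from 4, with the 6 vehicle libraries fitted alone, to 1483, without both libraries numbered 1, and lower calls are at least as many as higher calls in every row.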

How the data were processed

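RNA-seq read counts per gene, as deposited by the authors, were used for 18 libraries (6 groups of 3). Per the submitters' processing notes, STAR 2.6.0c, edgeR 4.2.2 and R 4.4.1 were used with build hg38; the read counter, strand setting and annotation are not given in the sources used here. Per the labels' protocols the RNA was column-purified with DNase and the libraries came from a stranded poly(A) kit. The table held 78724 genes, 40165 with a count, and 15558 passed edgeR's filterByExpr at a minimum count of 10. Counts were fitted with edgeR 4.0.16 (R 4.3.3, TMM factors, glmQLFit and glmQLFTest, all 18 libraries in 6 groups), adjusted by Benjamini-Hochberg over the 15558 genes, and called at an adjusted p under 0.05. A standard error is the log2 fold change divided by the square root of F. Gene models were matched for 14700 genes (94.5%, GENCODE 29).

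Named genes were PGR, the 15 largest called and non-overlapping changes in each direction, 10 in each direction called alike in MPA, 8 in each direction with the largest CPM difference and up to 8 whose line difference differed between treatments, all with a mean log2 CPM of 1 or more and no pseudogene or clone name, besides list members. A gene that met this rule is not reported here. These members, the lists and the rules were chosen with earlier results of these data known. DESeq2 1.42.0, another scaling, filters, offsets, a replicate block, the vehicle libraries alone and leaving out libraries were tried as alternatives. On simulated data with 200 changed genes among 15558, the vehicle comparison recovered 46.3% of 1.5-fold, 62.7% of 2-fold and 93.9% of 4-fold changes. It made 12 false calls, 8.16% of its calls. The simulated counts were drawn independently around 1 mean per gene, without outlying libraries or trends with GC and length. These shares may therefore not hold for the real libraries.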

Additional observations from a re-analysis of the deposited data

Results flagged for a closer look

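The difference between U1U2 and NT differed between MPA and vehicle, by the interaction term of edgeR's quasi-likelihood fit, for 7 of the vehicle calls. As line difference in MPA minus line difference in vehicle (log2 ± SE), it was 2.51 ± 0.30 for APCDD1, 1.36 ± 0.17 for FOXO1, 0.94 ± 0.18 for RHOU, 0.92 ± 0.17 for ALDH1A1, 0.82 ± 0.15 for NR2F1, 0.67 ± 0.12 for PLCB4 and -0.89 ± 0.14 for SYTL4. The interaction term contains the vehicle difference by which these 7 genes were called. APCDD1 and FOXO1 were called in 12 of 12 fits that left out 1 library, SYTL4 in 10, NR2F1 and PLCB4 in 5 each, RHOU in 2 and ALDH1A1 in 1. SYTL4 was lost without NT vehicle library 2 (adjusted p = 0.0763, edgeR) or U1U2 vehicle library 2 (0.0565). The highest adjusted p without 1 library was 0.159 for RHOU, 0.119 for ALDH1A1, 0.106 for NR2F1 and 0.119 for PLCB4, each without NT vehicle library 2.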

How the results depend on the processing

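None of the 178 called genes changed direction under the alternatives in which it was tested, and PGR stayed called, at 1.89 to 2.17 on the log2 scale. List medians near 0 did change sign, with ranges of -0.17 to 0.04 for non-collagen matrix proteins, -0.09 to 0.10 for collagen chains, -0.06 to 0.23 for matrix proteases and inhibitors, -0.13 to 0.20 for IGF system and -0.09 to 0.00169 for steroid receptor targets, and the bin of longest transcripts went from 0.03 to -0.03 without both libraries numbered 1. The count of vehicle calls moved far more. DESeq2 called 473 genes (178 higher, 295 lower), with 64 lower past 2-fold, and 123 genes (83 higher, 40 lower) for the difference between treatments. Offsets for GC and length gave 388 genes (162 higher, 226 lower) in vehicle, with 47 lower past 2-fold, 441 genes (211 higher, 230 lower) in MPA and 94 genes (67 higher, 27 lower) for the difference. Offsets from the longest transcript, added after seeing the data, gave 365 genes (122 higher, 243 lower), with 45 lower past 2-fold, 453 genes (213 higher, 240 lower) in MPA and 97 genes (67 higher, 30 lower) for the difference. With no filter on low counts, 808 genes (363 higher, 445 lower) were called in vehicle, 28 higher and 149 lower past 2-fold, and 281 genes (205 higher, 76 lower) for the difference. A minimum count of 50 left 5 genes higher past 2-fold and gave 35 higher for the difference. The 6 vehicle libraries alone gave 4 genes (2 higher, 2 lower), past 2-fold 1 higher and 2 lower, and 50 of 53 named genes besides PGR missed the threshold; the cause was not tested. Leaving out libraries gave 23 to 1483 vehicle calls (10 to 491 higher, 13 to 992 lower), 2 to 48 higher and 6 to 195 lower past 2-fold, 154 to 295 MPA calls (77 to 137 higher, 76 to 158 lower) and 8 to 58 for the difference (7 to 49 higher, 1 to 14 lower). Deviations of same-numbered NT and U1U2 vehicle libraries from their group means correlated across genes at -0.20, -0.23 and 0.09. With 3 libraries per group, these values cannot show whether the replicate numbers pair the libraries. With the replicate block, 62 genes (21 higher, 41 lower) were called in vehicle, past 2-fold 2 higher and 14 lower, and 12 genes (9 higher, 3 lower) for the difference, with 37 higher for the difference when the block was joined to GC and length offsets. PGR kept 2.09 under the block, while 27 of 53 named genes besides PGR missed the threshold there. Every NT library was shallower than every U1U2 library, so genes of few counts were measured less precisely in NT.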
